A study of Homo sapiens with 12 samples.

Results

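Hyaluronan is a long sugar polymer that fills the space between cells, and 10 genes that make, bind, or degrade it were followed in TIGK cells, a human gingival keratinocyte line immortalized with telomerase (hTERT). They were found by gene name among the 58735 genes of the count table: the synthases HAS1, HAS2, and HAS3, the precursor enzyme UGDH, the receptors CD44 and HMMR, and the degradation genes HYAL1, HYAL2, HYAL3, and CEMIP. These genes were chosen on a known result, the low HAS3 level of Arg-treated cells at 24 h. The 24 h values of all 10 genes are therefore given as a description without a test, and nothing is read from them. For HAS3, whose 24 h level led to the choice, the changes with time and the interaction, which contain that level, are also a description, and only the comparison at 48 h was tested. The other 9 genes were taken for their place in the pathway. Their changes with time were tested where counts allowed, although these share the 24 h libraries. The lists of other genes named below were also chosen with earlier results of these data known. The p-values and counts of these lists are therefore a description, and no conclusion is drawn from them.

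All cells were the same hTERT-immortalized line, kept at 48 mM glucose (high-glucose conditions) in a supplemented SILAC base medium to which the untreated control received no Arg. The 4 groups were control for 24 h, 500 µM L-arginine (Arg) for 24 h, control for 48 h, and 500 µM Arg for 48 h. Each group had 3 RNA-seq libraries, replicates A, B, and C. The methods give them as wells of a 6-well plate from a single line, so p-values measure the spread between these samples, which may be technical.

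Vertebrate cells make hyaluronan at the plasma membrane, where a synthase joins UDP-glucuronic acid and UDP-N-acetylglucosamine and pushes the chain out of the cell. In stratified epithelia, the polymer surrounds the living keratinocyte layers, and CD44 is its main receptor there. Breakdown involves hyaluronidases, of which HYAL2 sits at the cell surface and HYAL1 in lysosomes, and the hyaluronan-depolymerizing protein CEMIP.

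The libraries held 16542243 to 19040964 counts. The 8 keratinocyte markers summed to between 39831 and 56146 TPM, a level corrected for exonic length and library size. The 8 fibroblast markers summed to between 10.3 and 17.7 TPM at 24 h and between 25.6 and 34.9 TPM at 48 h, with 5 of the 8 under 1 TPM throughout. The 7 endothelial and immune markers were all under 1 TPM. Control replicate B at 48 h stood apart from its group. Its log2 levels differed from those of replicates A and C by a root mean square of 0.53 and 0.55, against 0.40 between A and C, and mitochondrially encoded genes took 1.55% of its counts, against 0.906% and 0.707%. This mitochondrial share also moved with treatment, from 1.2 to 1.3% in the 24 h control to 0.624 to 0.802% with Arg at 24 h, and was 1.14 to 1.31% with Arg at 48 h. Its part in the results was not tested. At 24 h, control replicate B (0.50 and 0.50 against 0.44) and Arg replicate A (0.49 and 0.49 against 0.44) also lay further from their groups by the root mean square. The calls that rest on the 48 h control are also given without control replicate B.

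Of the 10 genes, 7 passed the filter on low counts in every fit. HAS1, HAS2, and HYAL1 did not. In TPM, CD44 was the highest of the 10 in each group, with group means of 134 to 147 TPM. HMMR (87.1 to 111 TPM) and UGDH (73.7 to 91.6 TPM) came next, and their libraries did not overlap in Arg-treated cells at 24 h but overlapped in the other 3 groups. HAS3 stood in the fourth place in each group, although its mean ran from 54.6 TPM in the 24 h control down to 11.9 TPM in Arg-treated cells at 48 h. HYAL2 (7.35 to 10.4 TPM) lay above HYAL3 (3.67 to 6.77 TPM), and the libraries of this pair overlapped only in Arg-treated cells at 48 h. CEMIP stayed under 1 TPM in group means (0.280 to 0.820 TPM), and its libraries overlapped with those of HYAL1 in both 48 h groups.

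**Figure D1:**
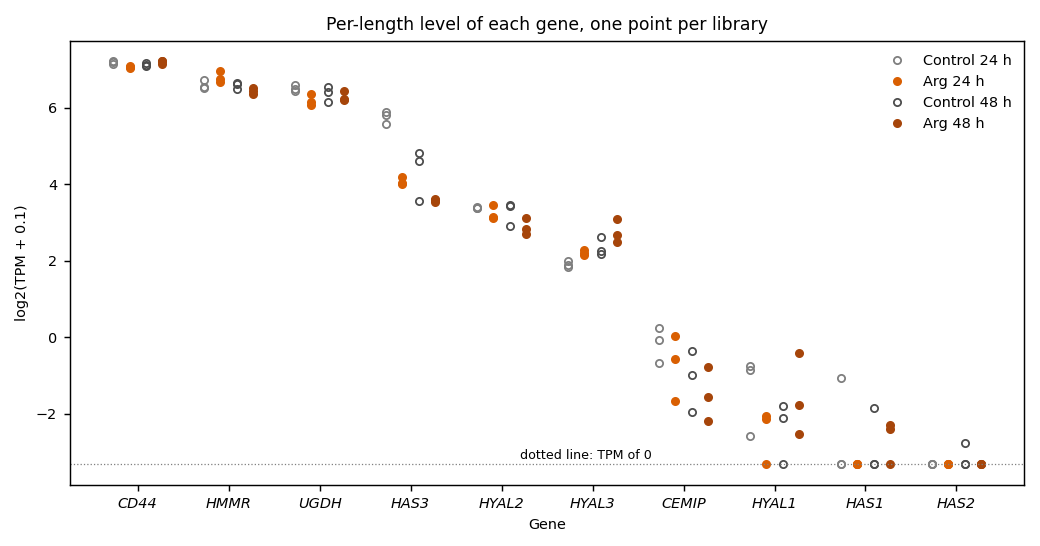
Level of the 10 genes per exonic length, as log2(TPM + 0.1), with 1 point per library, open for control and filled for Arg. CD44, HMMR, and UGDH lie at the top in every group, HAS3 has a mean of 54.6 TPM in the 24 h control and 11.9 TPM in Arg-treated cells at 48 h, and HAS1 and HAS2 lie at or near the dotted line of 0.

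Synthase RNA in TIGK cells was HAS3 RNA. HAS3 made up between 98.5% and 100% of the summed TPM of the 3 synthase genes in each of the 12 libraries. HAS1 had 8 counts over all libraries, in 4 of them, and HAS2 had 1 count, in control replicate A at 48 h. A library with a count of 0 allows up to 3 counts, which is 0.156 to 0.179 CPM (counts scaled to library size by the TMM method over all libraries), and this limit covers counting error only. Changes in HAS1 and HAS2 were not detectable at this depth.

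HAS3 (ENSG00000103044) lies on the plus strand of chromosome 16 of GRCh38, from 69105564 to 69118719. Its 3 untreated libraries at 24 h held 88.8, 68.1, and 85.2 CPM, and the 3 Arg libraries held 23.4, 22.5, and 26.1 CPM. All Arg libraries were thus below all control libraries, with means of 24.0 ± 1.84 against 80.7 ± 11.1 CPM (SD, n = 3). Arg libraries held 3.37-fold less HAS3 RNA, a log2 fold change of −1.75 with a standard error (SE) of 0.11. This is the contrast the genes were selected on. In RNA of whole cultures, fewer cells with HAS3 RNA and less HAS3 RNA per cell cannot be told apart.

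At 48 h, the untreated libraries held 39.0, 16.2, and 32.9 CPM of HAS3, and the Arg libraries held 15.8, 16.7, and 16.1 CPM. Control replicate B lay inside the narrow range of the Arg libraries, and replicates A and C lay above it. The log2 fold change was −0.86 (SE 0.24), and it did not pass edgeR's quasi-likelihood test (adjusted p = 0.177 over all 14562 genes tested, unadjusted p = 0.00332). Without control replicate B, it was −1.15, with an adjusted p of 6.38e-08 from edgeR's test. With all libraries kept, 2 of 7 alternative settings also called HAS3, the replicate block (−0.79, adjusted p = 0.0360) and the fit without a filter on low counts (adjusted p = 3.85e-09), both from edgeR. DESeq2 did not call it (adjusted p = 0.249). The log2 fold change stayed between −0.86 and −0.79 in all 7, so the small p without the filter does not reflect a larger change. Why it was so small was not tested. The call thus depends on that library and on the fit. Left-out libraries gave values between −1.15 and −0.60.

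HAS3 was also lower at 48 h than at 24 h in both arms, given here as a description. The log2 fold change with time was −1.46 (SE 0.23) in the untreated control, −1.16 without control replicate B at 48 h, and −0.56 (SE 0.11) in Arg-treated cells. The Arg contrast at 48 h minus that at 24 h was 0.89 on the log2 scale (SE 0.28), and 0.60 without that replicate. Arg-treated cells at 24 h (22.5 to 26.1 CPM) lay between the 2 lower untreated values at 48 h, 16.2 and 32.9 CPM. HAS3 thus had its highest level in untreated cells at 24 h and its lowest in Arg-treated cells at 48 h.

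The last 710 bases of HAS3 overlap CHTF8, which lies on the opposite strand and encodes a subunit of a loader of the replication clamp. Whether reads were assigned by strand is not given in the sources used here, and reads in this stretch could come from either gene. CHTF8 had 33770 counts over all libraries against 8138 for HAS3. It held 165, 165, and 172 CPM in the untreated libraries at 24 h and 156, 187, and 186 CPM in the Arg libraries, and these groups overlapped. Its log2 fold change with Arg was 0.07 (SE 0.084) at 24 h and −0.00072 (SE 0.084) at 48 h, where edgeR gave an adjusted p of 0.997 (−0.09 and 0.355 without control replicate B). The ratio of HAS3 to CHTF8 counts was 0.412 to 0.538 in the 24 h control and 0.121 to 0.150 in Arg-treated cells at 24 h. At 48 h, the ratio was 0.134 to 0.267 in the control and 0.109 to 0.122 with Arg, and these groups did not overlap, unlike those of HAS3 CPM. CHTF8 held 146, 121, and 151 CPM in the control and 145, 141, and 133 CPM with Arg at 48 h. The lowest control ratio was that of replicate B, which also had the lowest CHTF8 level of all libraries. The separation of the ratios thus rests on CHTF8 in that library.

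**Figure D2:**
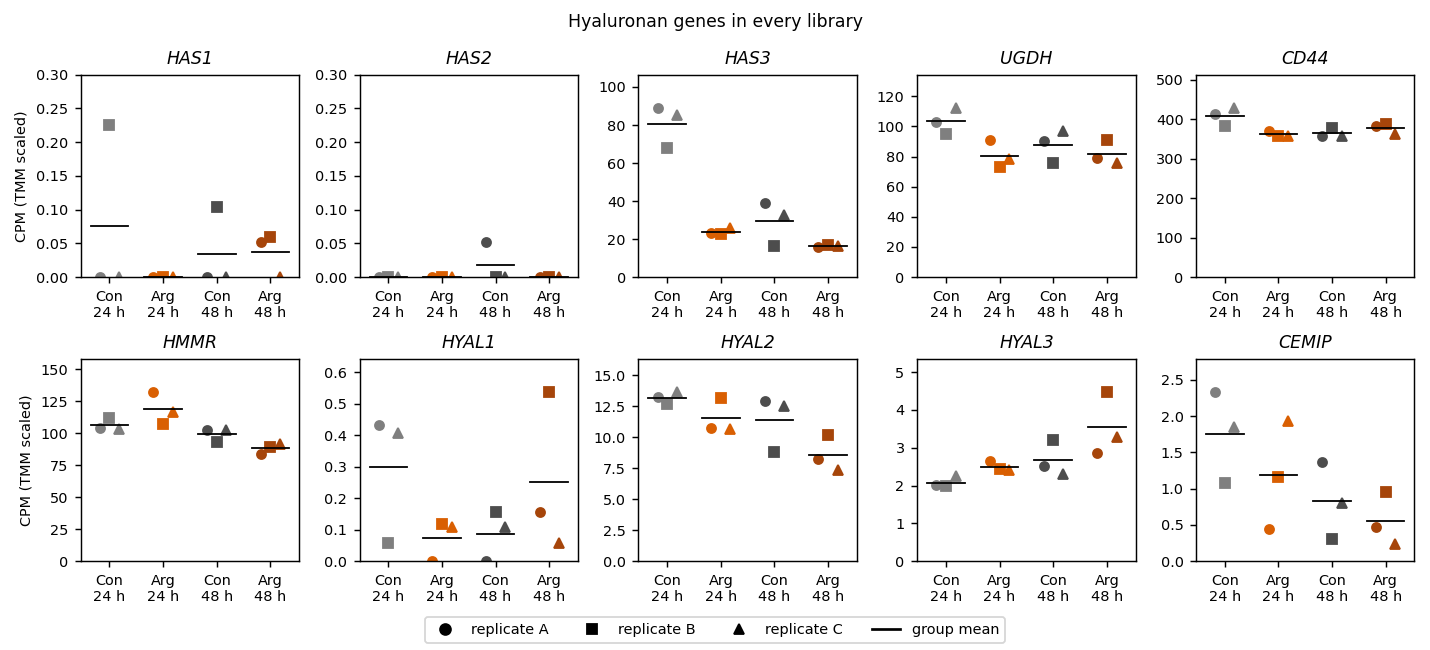
TMM-scaled CPM of each gene in every library, grouped by treatment and time (Con, untreated control), with the marker shape giving the replicate and the line the group mean of 3 libraries. HAS3 lies at 68.1 to 88.8 CPM in untreated cells and at 22.5 to 26.1 CPM with Arg at 24 h, and at 48 h control replicate B (square, 16.2 CPM) lies with the Arg libraries.

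The stretch before a RefSeq start site of HAS3 is shown because HAS3 carries nearly all synthase RNA. HAS3 also had the largest log2 fold change of the 7 genes at 24 h, a value that belongs to the choice of the genes. It holds the 250 bases before this start site, chr16:69107290-69107539 (GRCh38.p14, plus strand), and no exon of GENCODE v44 lies in it. The stretch lies inside the span of HAS3 in the count table, which begins at 69105564, and not upstream of the whole gene. The capitals mark a GCGTG, the core letters bound by the aryl hydrocarbon receptor. RefSeq promoter entries were found for 9 of the 10 genes, all but HAS2.
HAS3: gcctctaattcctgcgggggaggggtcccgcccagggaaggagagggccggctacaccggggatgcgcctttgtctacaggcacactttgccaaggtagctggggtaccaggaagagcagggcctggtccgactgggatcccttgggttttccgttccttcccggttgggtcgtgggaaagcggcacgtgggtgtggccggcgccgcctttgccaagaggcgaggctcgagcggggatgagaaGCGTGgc
The GCGTG begins 7 bases before the start site. On either strand, 32.2% of all 35116 promoter windows of this length hold these letters, so the match is a common one. HYAL1, HYAL2, and CEMIP also had 1 match each, so it does not set HAS3 apart among these genes. HAS3 has 1 GC box (GGGCGG, in 42.6% of windows) and no match to TGANTCA (AP-1, 6.57%), CCAAT (32%), TTTGAA (13.3%), or TATAAA (10.7%). A match is a description and not a binding site.

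UGDH (ENSG00000109814, chromosome 4 of GRCh38, minus strand, 39498755 to 39528311) oxidizes UDP-glucose to UDP-glucuronic acid, one of the sugar donors of the synthases. At 24 h, its untreated libraries held 103, 95.1, and 112 CPM, and the Arg libraries held 90.6, 72.8, and 78.2 CPM. The groups did not overlap, and the log2 fold change was −0.36 (SE 0.097). At 48 h, the untreated libraries held 90.4, 75.5, and 96.7 CPM and the Arg libraries 78.8, 90.7, and 75.8 CPM. Here the groups overlapped, and the log2 fold change of −0.10 (SE 0.098) did not pass edgeR's test (adjusted p = 0.686). It was −0.20 when control replicate B was left out (adjusted p = 0.0806 from edgeR's test). Between 24 and 48 h, UGDH had a log2 fold change of −0.24 in the control (SE 0.10, edgeR adjusted p = 0.120) and 0.02 in Arg-treated cells (SE 0.090, edgeR adjusted p = 0.884).

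The other 8 genes that supply the nucleotide sugars were all tested at both times. UGP2, which makes UDP-glucose, and UAP1, which makes UDP-N-acetylglucosamine, were lower with Arg at 24 h, and none of the 8 was higher (2 of 8 lower). Over all genes tested at 24 h, 3.84% were called lower and 2.79% higher at an adjusted p under 0.05. The log2 fold change of UGP2 was −0.51 (SE 0.095, edgeR adjusted p = 0.00371) and that of UAP1 was −0.66 (SE 0.12, edgeR adjusted p = 0.00318). At 48 h, none of the 8 was called by edgeR with all libraries, and 2 had an unadjusted p under 0.05. UGP2 had a log2 fold change of −0.33 (edgeR adjusted p = 0.174), and GFPT2, a form of the enzyme that opens the hexosamine pathway, had −1.27 (edgeR adjusted p = 0.191) at a low level of 1.15 ± 0.155 CPM with Arg against 2.76 ± 0.987 CPM without (SD, n = 3). Both were called lower without control replicate B, UGP2 at −0.36 (edgeR adjusted p = 0.00347) and GFPT2 at −1.52 (edgeR adjusted p = 0.00428). The background of that fit was 8.17% of all genes tested called lower and 7.76% called higher. With time, UAP1 and GNPNAT1 fell in both arms (2 of 8). Over all genes tested, 10% were called lower in the control and 14% in Arg-treated cells. UAP1 changed by −0.87 and GNPNAT1 by −0.46 in the control (edgeR adjusted p = 0.00359 and 0.0123), and by −0.30 and −0.27 in Arg-treated cells (edgeR adjusted p = 0.0332 and 0.0189), where GFPT1 rose by 0.23 (edgeR adjusted p = 0.0410).

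**Figure D3:**
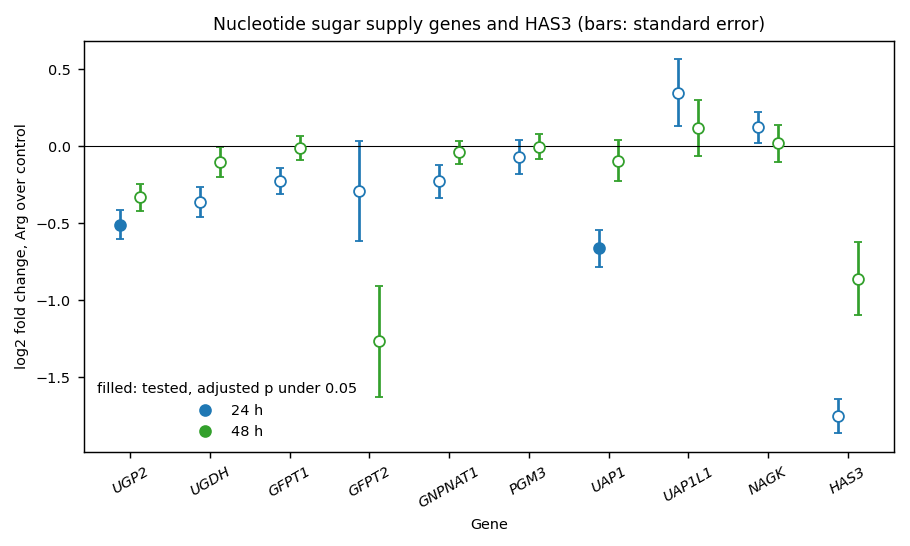
Log2 fold change of Arg over control for the nucleotide sugar genes and HAS3 at 24 h (blue) and 48 h (green), with bars for the standard error; filled points passed edgeR's test at 0.05 after adjustment, and UGDH and HAS3 at 24 h are drawn open because they are given as a description. UGP2 (−0.51) and UAP1 (−0.66) are filled at 24 h, and no gene is filled at 48 h, where control replicate B is included.

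CD44 (ENSG00000026508, chromosome 11, plus strand, 35138870 to 35232402) binds hyaluronan at the cell surface and links it to the actin cortex. Its untreated libraries at 24 h held 413, 383, and 428 CPM and the Arg libraries 369, 356, and 359 CPM. The groups did not overlap, but the log2 fold change was small, −0.17 (SE 0.074). At 48 h, the control libraries held 357, 378, and 357 CPM and the Arg libraries 383, 387, and 362 CPM. These groups overlapped, with a log2 fold change of 0.05 (SE 0.060, edgeR adjusted p = 0.755), or 0.08 without control replicate B (edgeR adjusted p = 0.367). With time, CD44 changed by −0.16 in the control (edgeR adjusted p = 0.129) and by 0.06 in Arg-treated cells (edgeR adjusted p = 0.495), and neither passed the test. Without control replicate B at 24 h, the change in the control was −0.21 and passed it narrowly (edgeR adjusted p = 0.0475). The antisense gene CD44-AS1 had 24 counts in all against 82025 for CD44. Gene-level counts do not separate the CD44 splice forms.

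Among 12 genes that link CD44 to the cytoskeleton, cut it, or splice it, ESRP2, an epithelial splicing factor, was higher with Arg at 24 h (1 of 12 higher, 0 lower, against 2.79% and 3.84% of all genes). It held 116 ± 11.5 CPM against 85.0 ± 0.181 CPM (SD, n = 3), a log2 fold change of 0.44 (SE 0.087, edgeR adjusted p = 0.00531). At 48 h, edgeR called none of the 12, with ESRP2 at 0.30 (adjusted p = 0.179) and the membrane linker MSN at 0.22 (adjusted p = 0.203), the 2 with an unadjusted p under 0.05. With control replicate B left out, 3 of 12 were called higher, ESRP2 at 0.39, MSN at 0.27, and ANK3 at 0.80 (edgeR adjusted p between 9.50e-05 and 0.00150). None of the 12 was called lower there, and the background of that fit was 7.76% of all genes called higher and 8.17% lower. With time in the control, 4 of 12 rose, against 9.9% of all genes, namely the protease MMP14 by 0.75, the membrane anchor ANK3 by 1.73, the sheddase ADAM10 by 0.33, and ESRP1 by 0.37 (edgeR adjusted p between 0.000884 and 0.0183). In Arg-treated cells, 5 of 12 rose with time and 1 fell, against 14.3% and 14% of all genes. ANK3 rose by 1.60, MMP14 by 0.56, the actin linker RDX by 0.33, and ADAM10 by 0.30 (edgeR adjusted p between 4.07e-07 and 0.00230).

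HMMR (ENSG00000072571, chromosome 5, plus strand, 163460203 to 163491945), also called RHAMM, binds hyaluronan and, inside dividing cells, the mitotic spindle. At 24 h, its untreated libraries held 104, 111, and 103 CPM and the Arg libraries 132, 107, and 116 CPM. These groups overlapped, with a log2 fold change of 0.16 (SE 0.089). At 48 h, the untreated libraries held 102, 92.9, and 103 CPM and the Arg libraries 83.8, 89.2, and 91.5 CPM. Here all Arg libraries lay below all control libraries, but the log2 fold change of −0.17 (SE 0.070) did not pass edgeR's test (adjusted p = 0.312, unadjusted p = 0.0283). It was −0.22 and passed once control replicate B was left out (edgeR adjusted p = 0.0230).

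HMMR fell between 24 and 48 h in Arg-treated cells by 0.43 on the log2 scale (SE 0.081, edgeR adjusted p = 0.000541), from 119 ± 12.5 to 88.1 ± 3.97 CPM (SD, n = 3). In the untreated control, the change was −0.10 (SE 0.078, edgeR adjusted p = 0.417), from 106 ± 4.48 to 99.2 ± 5.49 CPM (SD, n = 3). The difference between the arms, −0.33 (SE 0.12), did not pass edgeR's interaction test (adjusted p = 0.606), so a different course of HMMR in the 2 arms was not shown. The time contrasts use the same libraries as the Arg contrasts.

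The stretch before the RefSeq start site of HMMR is shown for a pair of TTTGAA matches, the letters of the cell cycle homology region of genes expressed in dividing cells, set in capitals. The stretch spans chr5:163460597-163460626 (GRCh38.p14 RefSeq, plus strand), just before the start site. All 250 bases before this start are exonic in GENCODE v44, in HMMR itself.
HMMR: ggggagaTTTGAATTTGAAaccggtaggga
The matches begin 28 and 22 bases before the start, and the 250 bases before it also hold 5 CCAAT matches on either strand. Of the 35116 windows, 13.3% hold a TTTGAA and 32% a CCAAT. Of the other 8 genes with a promoter entry, HAS1 alone had a TTTGAA, 30 bases before its start, and none had a CCAAT.

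Of 7 spindle proteins that work with HMMR, TPX2 and BARD1 were higher with Arg at 24 h (2 of 7 higher, 0 lower, against 2.79% and 3.84% of all genes). TPX2, an activator of the kinase AURKA, had a log2 fold change of 0.35 (edgeR adjusted p = 0.00840), and BARD1, the partner of BRCA1, had 0.42 (edgeR adjusted p = 0.0413). At 48 h, edgeR called none of the 7 with all libraries (2 with an unadjusted p under 0.05). AURKA had the smallest p there, with a log2 fold change of −0.20 (adjusted p = 0.342), followed by NUMA1 at 0.15 (adjusted p = 0.366). AURKA was called lower without control replicate B, at −0.30 (edgeR adjusted p = 0.000613). This was 1 of 7, against 8.17% of all genes called lower in that fit. With time in Arg-treated cells, 3 of 7 fell, as HMMR did, and 2 rose, against 14% and 14.3% of all genes. FAM83D, which together with HMMR brings a casein kinase to the spindle, fell by 0.68 (edgeR adjusted p = 3.27e-07), AURKA fell by 0.43 (edgeR adjusted p = 4.82e-05), and TPX2 fell by 0.31 (edgeR adjusted p = 0.00265), while NUMA1 rose by 0.29 (edgeR adjusted p = 0.0150). In the control, NUMA1 and BRCA1 rose with time (by 0.43 and 0.51), and FAM83D and the dynein subunit DYNLL1 fell (by 0.38 and 0.26), with edgeR adjusted p between 0.00581 and 0.0205. This was 2 of 7 in each direction, against 9.9% and 10% of all genes.

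HYAL2 (ENSG00000068001, chromosome 3, minus strand, 50317790 to 50322906) encodes the GPI-anchored hyaluronidase that cuts long chains at the cell surface. At 24 h, it held 13.2, 12.7, and 13.6 CPM in untreated libraries and 10.7, 13.2, and 10.6 CPM in Arg libraries, with overlap through Arg replicate B and a log2 fold change of −0.20 (SE 0.14). At 48 h, it held 13.0, 8.77, and 12.5 CPM in untreated libraries and 8.24, 10.2, and 7.37 CPM in Arg libraries. Control replicate B again lay among the Arg libraries, and the log2 fold change of −0.41 (SE 0.19) did not pass edgeR's test (adjusted p = 0.361, unadjusted p = 0.0459). Without that library, it was −0.57 (edgeR adjusted p = 0.0156). With time, HYAL2 changed by −0.21 in the control (SE 0.16, edgeR adjusted p = 0.410) and by −0.42 in Arg-treated cells (SE 0.16, edgeR adjusted p = 0.0569), neither past the test, although the change in Arg-treated cells was −0.55 and passed it without Arg replicate B at 48 h (edgeR adjusted p = 0.0345). TUSC2 lies on the same strand and overlaps HYAL2 over 2880 bases. TUSC2 had 4440 counts in all against 2425 for HYAL2, so reads of these genes could have been split. The log2 fold change of TUSC2 with Arg was −0.03 at 24 h and −0.01 at 48 h (edgeR adjusted p = 0.974 at 48 h).

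The TPM of HAS3 was 5.25 ± 0.593 times that of HYAL2 in the 24 h control and 1.82 ± 0.320 times in Arg-treated cells at 24 h (SD, n = 3). At 48 h, it was 2.15 ± 0.511 times in the control (2.26 and 2.59 in replicates A and C) and 1.65 ± 0.234 times with Arg (SD, n = 3). These ratios compare RNA levels per exonic length, not enzyme amounts, and the HYAL2 level is open to its overlap with TUSC2.

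HYAL3 (ENSG00000186792, chromosome 3, minus strand, 50292831 to 50299468), a hyaluronidase family member of low activity in cells, had log2 fold changes of the opposite sign to those of HYAL2. It had 35 to 75 counts a library. At 24 h, it held 2.004, 1.98, and 2.26 CPM in untreated libraries and 2.64, 2.45, and 2.42 CPM with Arg, so the groups did not overlap (log2 fold change 0.26, SE 0.29). At 48 h, it held 2.52, 3.22, and 2.31 CPM and 2.87, 4.47, and 3.28 CPM, which overlapped (log2 fold change 0.39, SE 0.27, edgeR adjusted p = 0.560; 0.55 and 0.232 without control replicate B). The changes with time were 0.37 in the control and 0.50 in Arg-treated cells (edgeR adjusted p = 0.383 and 0.184). HYAL3 shares 3020 bases with NAA80 on the same strand, which had 516 counts in all against 585 for HYAL3, so reads of these genes could have been split. NAA80 had log2 fold changes of −0.44 and −0.30 with Arg at 24 and 48 h (edgeR adjusted p = 0.701 at 48 h). IFRD2, which shares 88 bases with HYAL3, had 19495 counts.

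CEMIP (ENSG00000103888, chromosome 15, plus strand, 80779343 to 80951776), which promotes hyaluronan depolymerization in skin fibroblasts, was near the limit of the counts. It held 2.33, 1.07, and 1.85 CPM in untreated libraries at 24 h and 0.450, 1.16, and 1.93 CPM with Arg. At 48 h, it held 1.36, 0.311, and 0.804 CPM without and 0.469, 0.953, and 0.230 CPM with Arg. All 4 groups spread widely, and neither the Arg contrast at 48 h (log2 fold change −0.59, SE 0.63, edgeR adjusted p = 0.717) nor the changes with time, −1.08 in the control and −1.11 with Arg (edgeR adjusted p = 0.152 and 0.167), passed the test. The Arg contrast at 48 h was −0.98 without control replicate B (edgeR adjusted p = 0.291). CEMIP shares 5488 bases with MESD on the opposite strand, which had 16186 counts against 234 for CEMIP. HYAL1 had 38 counts in all, between 0 and 9 a library, and was not tested.

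Other genes that act on hyaluronan or related chains were counted in the same way. Over all genes tested, 3.84% were called lower and 2.79% higher with Arg at 24 h, and 0.117% and 0% at 48 h. At 48 h without control replicate B, 8.17% were called lower and 7.76% higher. With time, 10% were called lower and 9.9% higher in the control, and 14% and 14.3% in Arg-treated cells. Of 4 other degradation genes tested, edgeR called 0 with Arg at either time (0 with an unadjusted p under 0.05 as well) and 0 at 48 h without control replicate B, with CEMIP2, a cell-surface hyaluronidase, at −0.17 at 24 h and 0.09 at 48 h. CEMIP2 rose with time in Arg-treated cells by 0.54 (edgeR adjusted p = 0.000176). Of 25 hyaluronan-binding proteins and other receptors, 6 were expressed enough to be tested at 24 h, and 1 was lower with Arg, C1QBP, a mostly mitochondrial protein that also binds hyaluronan (log2 fold change −0.28, edgeR adjusted p = 0.0499). C1QBP also fell with time by 0.50 in the control and by 0.48 in Arg-treated cells (edgeR adjusted p = 0.00693 and 1.93e-05). At 48 h, 0 of 7 were called, with C1QBP at −0.26 (edgeR adjusted p = 0.232) and TLR2 at −0.29 (edgeR adjusted p = 0.344), the 2 with an unadjusted p under 0.05. Both were called lower without control replicate B, at −0.37 and −0.41 (edgeR adjusted p = 3.11e-05 and 0.00555). Enzymes of the other glycosaminoglycan chains gave 0 calls of 14 tested at 24 h and 0 of 13 at 48 h (2 and 1 with an unadjusted p under 0.05), with CHPF at −0.26 and EXTL3 at −0.24 at 24 h and EXT2 at −0.18 at 48 h. Leaving out control replicate B gave 2 of 13 called lower at 48 h (CHPF at −0.34 and EXT2 at −0.24) and 1 higher (B3GAT3 at 0.44), with edgeR adjusted p between 0.00363 and 0.0198. With time, B3GALT6 fell by 0.46 in the control (edgeR adjusted p = 0.00524), and in Arg-treated cells B3GAT3 and DSE rose by 0.48 and 0.32 while B4GALT7 and EXT2 fell by 0.34 and 0.22 (edgeR adjusted p between 0.0126 and 0.0389). Of 4 fibroblast markers tested with Arg at 24 h, 2 had a positive and 2 a negative log2 fold change, with a median of −0.06. Only DCN, itself a matrix protein, was called, and it was lower (−0.70, edgeR adjusted p = 0.0294). With time, 2 of 4 were called higher and 0 lower in each arm. DCN rose by 1.08 in the control and by 1.61 with Arg (edgeR adjusted p = 0.00293 and 4.04e-07). The part of such markers in the values above was not tested. The listed genes named as called with time in the control were also called without control replicate B at 48 h.

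The contrast with Arg at 24 h chose the genes, so calls among them are not counted there. A call below is an adjusted p under 0.05, from edgeR unless DESeq2 is named. At 24 h, the groups did not overlap in 4 of the 7 tested genes (HAS3, UGDH, and CD44 lower, HYAL3 higher), against 26.2% of all genes tested. At 48 h, edgeR called 0 of the 7 in either direction, where the background was 0.117% lower and 0% higher. DESeq2 also called 0, against 0.989% lower and 0.282% higher of all genes. At an unadjusted p under 0.05, 3 were lower (HAS3, HMMR, and HYAL2) and 0 higher, against 7.49% and 5.94% of all genes tested. The groups at 48 h did not overlap in 1 of 7, HMMR, against 17.1% of all genes. Without control replicate B, 3 of the 7 were called lower at 48 h, HAS3, HMMR, and HYAL2, when 8.17% of all genes tested were called lower and 7.76% higher.

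With time in the control, 0 of the 6 tested genes other than HAS3 were called by edgeR, against 10% of all genes called lower and 9.9% called higher (UGDH and CD44 had an unadjusted p under 0.05). Without control replicate B at 48 h, the other 6 genes had changes of −0.14 (UGDH), −0.19 (CD44), −0.05 (HMMR), −0.05 (HYAL2), 0.22 (HYAL3), and −0.69 (CEMIP) in the control, and none passed edgeR's test (adjusted p between 0.0875 and 0.852). In Arg-treated cells, HMMR was called lower, 1 of 6, against 14% lower and 14.3% higher. The interaction contains the 24 h contrast, so its values describe and support nothing. Among the 6 genes other than HAS3, edgeR and DESeq2 called 0, with 0.0132% of all genes called higher and 0% lower by edgeR and 0.0528% and 0.0462% by DESeq2. The difference was 0.23 for CD44 (SE 0.091) and −0.33 for HMMR, and 0.25 and −0.37 without control replicate B at 48 h. At 48 h, the median log2 fold change with Arg of the 7 tested genes was −0.17, against 0.0018 over all genes tested. The 3 genes with the lowest counts are not in this median.

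**Figure D4:**
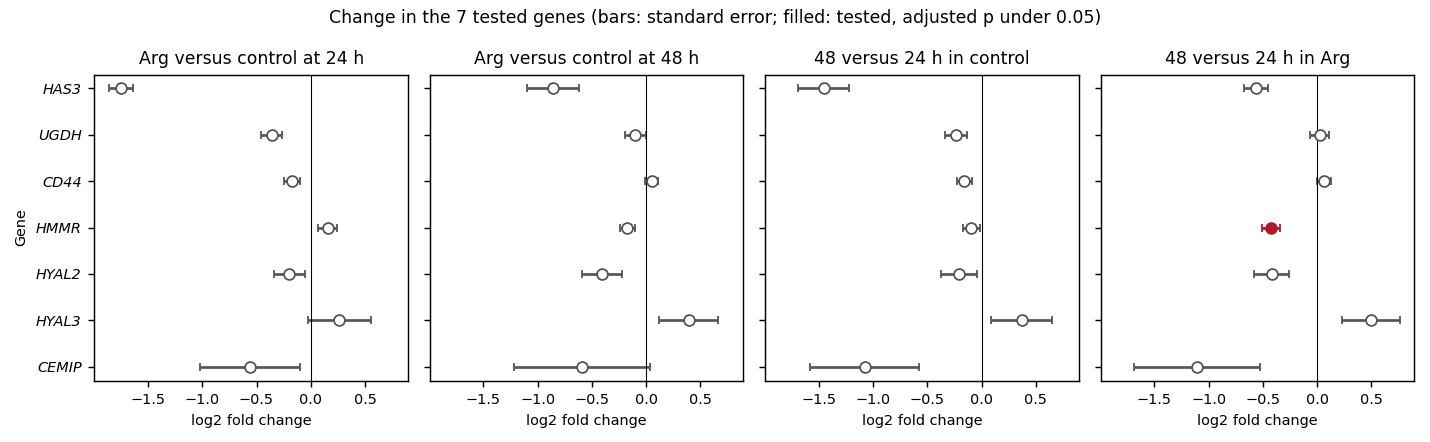
Log2 fold change of the 7 tested genes in the 2 Arg contrasts and the 2 time contrasts, with bars for the standard error; filled points passed edgeR's test at 0.05 after adjustment, and the 24 h Arg contrast and the HAS3 time contrasts are drawn open because they are given as a description. HAS3 lies left of 0 in all 4 panels (−1.75, −0.86, −1.46, and −0.56), and HMMR with time in Arg-treated cells (−0.43) is the filled point.

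Leaving out each 48 h library in turn showed how far the 48 h values rest on single libraries. HAS3, UGDH, HMMR, HYAL2, and CEMIP stayed below 0, and CD44 and HYAL3 stayed above 0, in all 6 fits. CEMIP moved most, between −1.21 and −0.02, HAS3 between −1.15 and −0.60, and CD44 least, between 0.03 and 0.08. HAS3, HMMR, and HYAL2 were each called by edgeR in 1 of the 6 fits, the fit without control replicate B. In the other fits, their edgeR adjusted p reached 0.651, 0.732, and 0.769. None of the other tested genes was called in any of these fits.

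**Figure D5:**
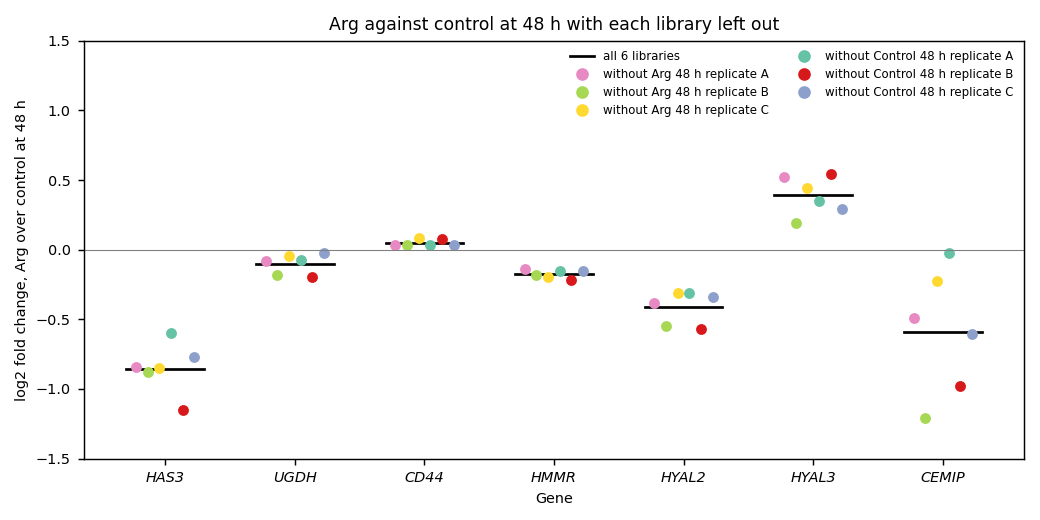
Log2 fold change of Arg over control at 48 h for the 7 tested genes, with a line for all 6 libraries and a point for each fit with 1 library left out. Without control replicate B (red), HAS3 moves from −0.86 to −1.15, HYAL2 from −0.41 to −0.57, and HMMR from −0.17 to −0.22.

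Across the 12 libraries, the log2 CPM of HAS3 was most like that of UGDH among the other 6 tested genes (Pearson's r = 0.82). HYAL2 (r = 0.78) and CEMIP (r = 0.73) were close behind, and CD44 had r = 0.58. HAS3 ran opposite to HYAL3 (r = −0.78), while HAS3 and HMMR had r = 0.38. CD44 and HMMR, the receptor genes, had r = −0.16. These values describe 12 libraries that fall into 4 groups and share their treatment, time, and depth, and they carry no p. They include the 24 h values on which the genes were chosen. Over 15147 other genes, those most like HAS3 were MARCKSL1, CYC1, PLTP, CASC19, and GNB1 (r between 0.974 and 0.980). Those most like HMMR were XRCC5, MELK, NCBP1, EXOSC9, and DTL (r between 0.927 and 0.956), and those most like CD44 were MT-TC, TNFAIP3, BTG3, AKR1C1, and SPCS3 (r between 0.868 and 0.929).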

How the data were processed

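Per the submitters' processing notes and the methods, fastp cleaned the reads, STAR aligned them to GRCh38/hg38, and featureCounts assigned them to genes. The authors deposited raw counts with exonic lengths. The versions, annotation release, and strand setting are not given in the sources used here. Groups come from the labels. The members and lists were chosen with earlier results of these data known. The text names all 10 genes, genes overlapping them, up to 4 called genes per list with the smallest p (up to 2 where none was called), and the 5 genes most correlated with HAS3, HMMR, and CD44.

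Each pair of groups was fitted with edgeR 4.0.16 in R 4.3.3 (TMM, filterByExpr, quasi-likelihood test, no block), and the interaction over 12 libraries. The p-values were Benjamini–Hochberg adjusted over all genes tested, with a threshold of 0.05. The standard error is the absolute log2 fold change over the root of F. DESeq2 1.42.0 was an alternative, as were other scalings and filters, a replicate block, and left-out libraries. TPM and log2 CPM (prior count 2) were computed from the counts. The edgeR fit of each comparison was tested on simulated counts, and the other steps were not. The simulated counts had the same dispersion for every gene and no library set apart. They therefore do not test the fit at the spread of the 48 h control. A single-gene permutation test of 3 against 3 cannot go below 0.1. Protein sequences were not used here.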

Additional observations from a re-analysis of the deposited data

How the results depend on the processing

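Over the 5 comparisons, the 7 tested genes gave 35 log2 fold changes. With all libraries kept, 224 of 231 alternative values kept their direction and their side of the threshold, as did 235 of 252 with 1 library left out. DESeq2 and the other scalings moved no count of called genes among these 7 past 1.5 times. Over all genes, DESeq2 called 41 higher and 144 lower at 48 h, against 0 and 17 by edgeR, and 8 and 7 in the interaction, against 2 and 0. The replicate block called 43 higher and 141 lower at 48 h. Without control B, edgeR called 1152 and 1213 there and 28 and 18 in the interaction. The values of the listed genes and of the HAS3 to HYAL2 ratio without control B at 48 h were chosen after seeing the data. At 48 h, the count of genes called lower among the 7 was 0 with all libraries and 0 to 3 with a library left out (3 without control B). It was 1 without a filter on low counts (HAS3, edgeR adjusted p = 3.85e-09) and 1 with the replicate block (HAS3, −0.79, edgeR adjusted p = 0.0360). DESeq2 gave HAS3 an adjusted p of 0.249 there. The cause of these moves was not tested. With time in the control, the count was 2 with the replicate block (UGDH joined) and 1 to 2 with a library left out (CD44 joined without control B at 24 h). With time in Arg-treated cells, it was 1 in a single model of all 12 libraries. The interaction gave 1 gene higher, HAS3, without the filter, and since it contains the 24 h contrast nothing is read from it, nor from HAS3 in the counts with time. Values that changed sign were the interactions of CEMIP and HYAL3 and the change of UGDH with time in Arg-treated cells. CEMIP's interaction was −0.027 as reported, 0.017 with the replicate block, and −0.65 to 0.54 with a library left out. With a library left out, HYAL3's interaction ran from −0.069 to 0.28, and UGDH with time in Arg-treated cells from −0.055 to 0.11. Deviations of same-lettered replicates from their group means had correlations from −0.061 to 0.13. This check cannot settle whether the letters pair the libraries, since each group has only 3. With time in the control, the replicate block called 1969 higher and 2075 lower over all genes, against 1431 and 1451 without it. It called fewer with Arg at 24 h (379 and 545, against 398 and 549) and with time in Arg-treated cells (1926 and 1853, against 2060 and 2012). With 3 libraries a group, small changes in genes such as CEMIP, with 4 to 43 counts a library, were not detectable.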
